A study of Mus musculus with 6 samples.

Results

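The 5 circRNAs described here had the highest mean level in a table of 3662 circRNAs from differentiating white adipocytes, and they come from the parental genes Nfix, Hipk3, Pvt1, Med13l and Mettl9. They are circBase entries mmu_circ_0001704, mmu_circ_0001052, mmu_circ_0000604, mmu_circ_0001396 and mmu_circ_0001624. Every circRNA on the same strand that overlapped them was added, which gave 8 more and 13 in all. Because the 5 leading circRNAs were chosen by their mean level over all libraries, that level is given as a description and was not tested. Cells of the stromal vascular fraction, the mixed cells left when adipocytes are removed from a fat pad, were grown from the inguinal fat of female C57BL/6 mice 6 weeks old (C57BL/6J in the study's methods). They were collected while proliferating (D0), after 4 days with insulin, dexamethasone and IBMX (D4), and after 4 further days with insulin and T3 (D8). Each stage had 2 libraries, which the study calls biological replicates, without saying whether they came from separate animals. The RNA had been depleted of rRNA and digested with RNase R, an exonuclease that removes linear RNA, and the stromal vascular fraction can also hold cells that do not become adipocytes.

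A circRNA forms when a splice donor joins an acceptor that lies upstream of it, which closes an exon or several exons into a ring without free ends. Rings resist exonucleases and are lost slowly, so a circRNA can be plentiful although back-splicing itself is usually inefficient. Each circRNA is counted by the reads across its back-splice junction. As every ring has a single such junction whatever its length, the counts are given without a correction for length. Whether length affects them in other ways was not tested.

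The junction identifies a circRNA and tells it apart from circRNAs that share exons with it. The last 15 bases of the circle are shown in lower case and the first 15 in capitals, 5′ to 3′ on the transcribed strand of mm9, for the 5 leading circRNAs.
Nfix: ttgtccacactccggGATGAGTTCCACCCG
Hipk3: atctcgctactacagGTATGGCCTCACAAG
Pvt1: agctccctctaaaatGTCTGATTTTCTTAA
Med13l: atcatgaactgcaggGCTGAACTCACAGGA
Mettl9: cctatgtagaaaacgTGGTATGTGTGCAAC

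Of the 8 overlapping circRNAs, 5 used the same first bases as the leading circRNA and 3 the same last bases. The most abundant overlapping circRNA of Mettl9 and the most abundant of Pvt1 show both cases, and only the other side of the junction differs from the leading sequence above.
Mettl9, shared last bases: cctatgtagaaaacgGTTGCTAGGAAGAGG
Pvt1, shared first bases: atttggaaaattgagGTCTGATTTTCTTAA
The bases just outside the ends of the circles were AG before the first base and GT after the last base, the usual splice signals, in all 13 circRNAs and in 3646 of 3662 (99.6%) in the table. CIRI2, the program that called the circRNAs, looks for these signals when it accepts a junction, so the share follows its rule and checks only the coordinates and the build.

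The Nfix circRNA lay at chr8:87295683-87296214 on the minus strand of mm9 and consisted of exon 2 of 12, with 532 bases that are all coding. Nfix encodes a transcription factor of the nuclear factor I family. The Hipk3 circRNA, at chr2:104310906-104312004 on the minus strand, was exon 2 of 17 with 1099 bases, of which 1097 are coding and 2 belong to the 5′ UTR. Hipk3 encodes a homeodomain-interacting protein kinase, a nuclear serine/threonine kinase. The Pvt1 circRNA, at chr15:61938703-61939020 on the plus strand, was exon 2 of 10 with 318 bases. Pvt1 is a long non-coding RNA gene next to Myc. The Med13l circRNA, at chr5:119043342-119043579 on the plus strand, was exon 2 of 31 with 238 bases. In the transcript used, these bases were all in the 5′ UTR. Whether they are coding in other transcripts of Med13l was not checked. The coding and UTR bases of the other circRNAs in this paragraph likewise come from the transcript used for each. Med13l encodes a subunit of the kinase module of Mediator, the complex that links transcription factors to RNA polymerase II. The Mettl9 circRNA, at chr7:128191352-128200913 on the plus strand, joined exon 4 to exon 2 of 5, and held 586 coding bases if it is spliced like the annotated transcript. For this and the other circRNAs of several exons only the junction was counted, and the inner exons are those of the annotation. Mettl9 encodes a methyltransferase that modifies histidine.

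All 5 leading circRNAs thus began at exon 2 of their transcript and 4 of 5 were single exons. Among the 3338 circRNAs with both ends at annotated exon ends, 1149 (34.4%) began at exon 2 and 198 (5.93%) were single exons. Among the 50 most abundant circRNAs, 47 could be placed, of which 34 (72.3%) began at exon 2 and 8 were single exons. Without the 5 leading circRNAs themselves, 29 of 42 (69.0%) began at exon 2 and 4 (9.52%) were single exons, so a start at exon 2 was frequent in the other abundant circRNAs too. The spliced lengths spanned most of the table, from Med13l, longer than 8.36% of the placed circRNAs, to Hipk3, longer than 95.3%. The intron downstream of the circle was above the median of the table in every case, from 18730 bases in Mettl9 to 77442 in Med13l against a median of 8155.5 bases over all placed circRNAs and 16594 over the 42 other abundant ones. The upstream intron was 68946 bases in Pvt1, 32475 in Med13l, 22100 in Hipk3 and 12862 in Mettl9, against medians of 10432 and 19964.5 bases in the same sets. In the transcript used, Nfix differed from the others here with an upstream intron of 1038 bases, longer than only 6.24% of the placed circRNAs. The annotated Nfix gene reaches further upstream, to base 87324243 of chr8. Other transcripts were not compared, so this length may depend on the transcript. The other introns given here rest on the chosen transcript in the same way. Nfix also had the highest G and C content of the 5 at 58.1%, and Mettl9 the lowest at 41.6%, against a median of 47.9%.

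**Figure D1:**
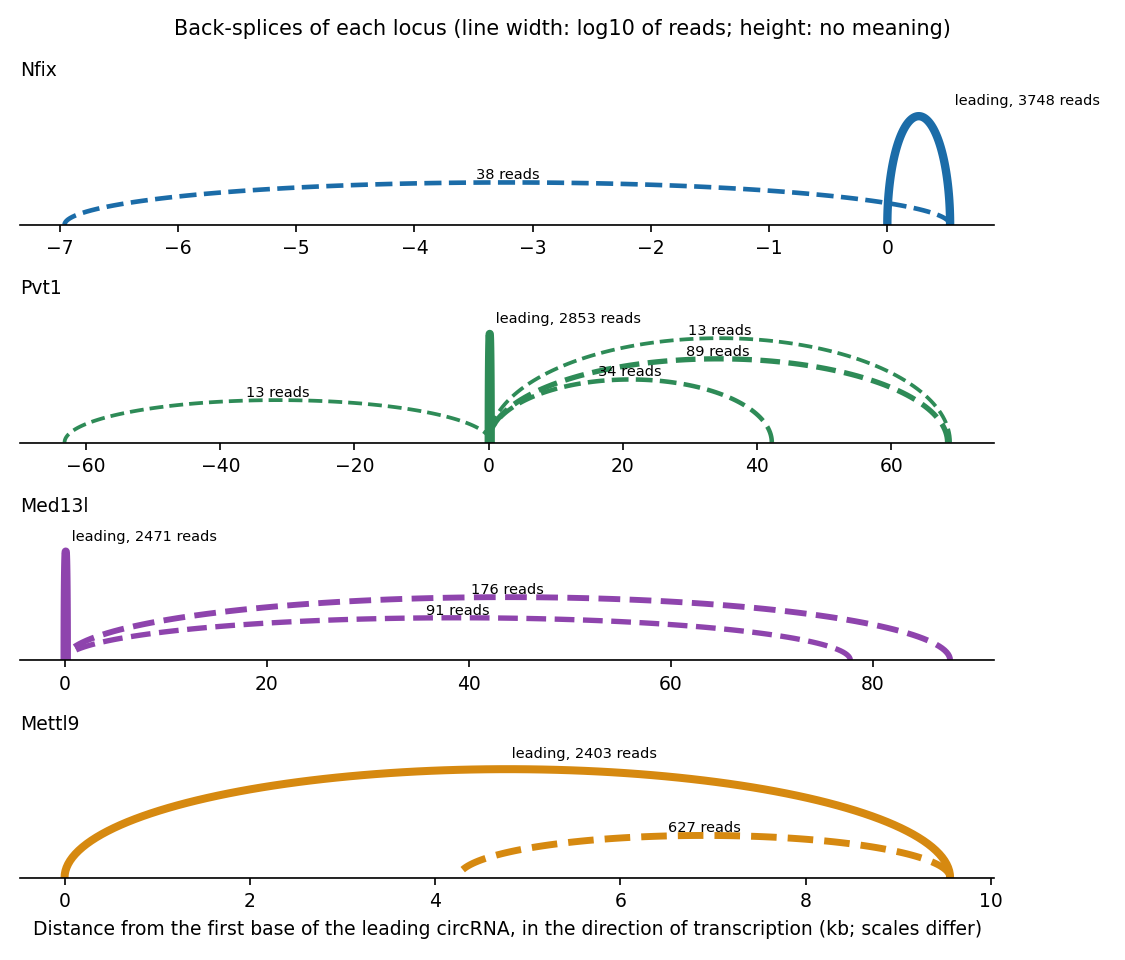
Back-splices of the 4 loci with overlapping circRNAs. Each arc joins the first and last base of a circRNA, with the distance in kb from the first base of the leading circRNA on the x axis. Solid arcs are the leading circRNAs, dashed arcs the overlapping ones, and the line widens with the log10 of reads summed over 6 libraries. The leading circRNA took most reads in each locus, with 2403 against 627 in Mettl9.

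The libraries held 30110 and 32310 back-splice reads at D0, 43069 and 41658 at D4, and 45371 and 50672 at D8. Levels are in circCPM, which scales the reads of each circRNA to 1000000 back-splice reads in its library, so 1 read equals 19.7 to 33.2 circCPM. Replicates differed by more than counting error, with a chi-square per degree of freedom of 6.10 at D0, 2.68 at D4 and 4.61 at D8. No value in the table is exactly 1, so a value listed as 0 may have been a single read. CircRNAs of adipocyte marker genes (9, from Lipe, Pparg, Cd36 and Lpl of 12 genes checked) summed to 0 circCPM in both D0 libraries, 302 and 432 at D4, and 1234 and 1362 at D8. The table keeps a circRNA only if both libraries of some stage had at least 2 reads, so a circRNA listed at 0 in both D0 libraries had to enter through D4 or D8, and the higher sums there are in part fixed by that filter. Those of preadipocyte markers (Ebf2 and Pdgfra of 10 genes) summed to 365 and 310 circCPM at D0, 209 and 72.0 at D4, and 88.2 and 98.7 at D8. The Ebf2 circRNA had 3 and 0 reads at D0, 6 and 3 at D4, and 0 in both D8 libraries, so it met the filter only at D4. The Pdgfra circRNA had 8 and 10 reads at D0, 3 and 0 at D4, and 4 and 5 at D8. Their courses thus differed, and the sums rest on few reads. Lists of endothelial, leukocyte, pericyte and mesothelial markers had 0 circRNAs in the table, which says nothing of their mRNA. In bulk RNA, a different share of cells and a different amount of RNA per cell cannot be told apart.

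Together the 5 leading circRNAs took 4.75% and 5.04% of all back-splice reads at D0, 6.99% and 6.71% at D4, and 6.60% and 6.01% at D8. Their mean levels over the 6 libraries, by which they were chosen, ran from 15342 circCPM for Nfix and 13923 for Hipk3 through 11502 for Pvt1 to 9743 for Med13l and 9631 for Mettl9. The next 2 circRNAs of the table, from Lrch3 (mmu_circ_0000681) and Cnot6l (mmu_circ_0012878), had means of 7417 and 7208 circCPM. The members were not among the top 5 in every library. Med13l ranked 17 in D0 replicate 1, its lowest rank, and between 2 and 6 in the others. Mettl9 ranked 10 in D0 replicate 1 and between 3 and 6 elsewhere.

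**Figure D2:**
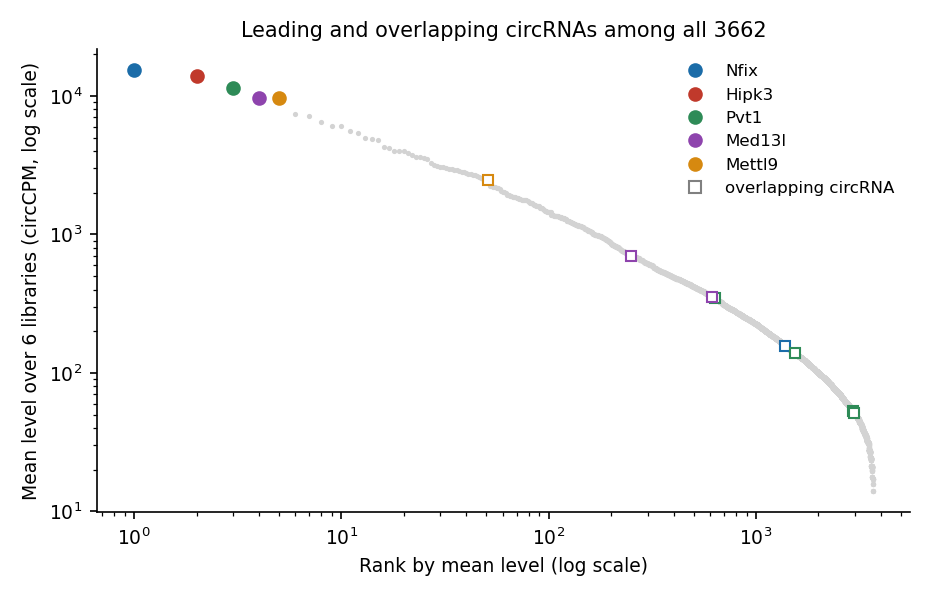
Mean level over 6 libraries (circCPM, log scale) against rank (log scale) for all 3662 circRNAs, with the leading circRNAs as filled circles and the overlapping ones as open squares. The overlapping circRNA of Mettl9 ranked 51 and that of Med13l with 176 reads ranked 250, while the other overlapping circRNAs ranked 616 or lower.

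The order of the 5 mean levels was not the same in the 3 stages. On D0 the mean levels fell from Nfix through Hipk3, Pvt1 and Mettl9 to Med13l, and the 2 libraries of each overlapped in range with those of the next. On D4 Hipk3 came first and its libraries were above those of Nfix. Nfix and Med13l overlapped, both Med13l libraries were above those of Mettl9, and Mettl9 and Pvt1 overlapped. On D8 Nfix came first and apart from the rest, and Pvt1, Hipk3, Med13l and Mettl9 followed, each overlapping the next.

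The question of the stage comparison is which of these circRNAs changed as the cells differentiated. The Med13l circRNA was the only one of the 10 members tested that passed edgeR's quasi-likelihood test with Benjamini-Hochberg adjustment in any pair of stages, being higher at D4 than at D0. In that comparison 46 of 1407 circRNAs (3.27%) passed, 31 of them higher at D4. No member passed in D8 against D0, where 21 circRNAs (1.49%) did and 265 had an unadjusted p under 0.05. The same held for D8 against D4 with 1 circRNA (0.0711%) and 172 at an unadjusted p under 0.05, and for the test across all 3 stages with 16 (1.14%) and 295. The 3 members not tested were Pvt1 circRNAs with too few reads.

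The Med13l circRNA had 135 and 215 reads at D0, 513 and 583 at D4, and 515 and 510 at D8. Its level was 5569 ± 1535 circCPM at D0, 12953 ± 1473 at D4 and 10708 ± 909 at D8 (mean ± SD, n = 2). Both D4 and both D8 libraries were above both D0 libraries, and the D4 libraries were above the D8 libraries. The log2 fold change of D4 against D0 was 1.31 (SE 0.24, 2.48-fold, adjusted p = 0.0342 by edgeR's quasi-likelihood test). Without D4 replicate 1 the adjusted p was 0.110, without D4 replicate 2 it was 0.155, and without a filter on low counts it was 0.0752. Over 14 alternatives the adjusted p ran from 0.0112 to 0.155 and the log2 fold change from 1.04 to 1.63. D8 against D0 gave a log2 fold change of 1.04 (SE 0.24, edgeR adjusted p = 0.0854, 0.0253 to 0.172 over the alternatives), and it passed only without D0 replicate 2. Across all 3 stages the edgeR adjusted p was 0.0577, from 0.0292 to 0.169 over 13 alternatives. That test passed with DESeq2, the study's tool (0.0292), with no filter (0.0457), at a mean of 20 counts or more (0.0437), and without D0 replicate 1 (0.0498), D0 replicate 2 (0.0301) or D8 replicate 2 (0.0365).

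The Hipk3 circRNA had 311 and 360 reads at D0, 865 and 782 at D4, and 608 and 497 at D8. Its level was 10735 ± 575 circCPM at D0, 19428 ± 928 at D4 and 11604 ± 2540 at D8 (n = 2). The D4 libraries were the 2 highest, and D8 replicate 2 fell below both D0 libraries while D8 replicate 1 was above them. The log2 difference of D4 against D0 was 0.95 (SE 0.21, 1.93-fold), with an edgeR adjusted p of 0.0573, so it did not pass. It passed without D8 replicate 1 (edgeR adjusted p = 0.0433), without D8 replicate 2 (0.0301) or in a fit of those 2 stages only (0.0495), within a range of 0.0301 to 0.241 over 14 alternatives. D8 against D4 gave a log2 difference of -0.74 (SE 0.21, edgeR adjusted p = 0.234). D8 against D0 gave 0.21 on the log2 scale, with a 95% interval of -0.28 to 0.70.

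The Mettl9 circRNA had 173 and 288 reads at D0, 484 and 473 at D4, and 475 and 510 at D8. Its level was 7330 ± 2240 circCPM at D0, 11296 ± 82.4 at D4 and 10267 ± 286 at D8 (n = 2). Both D0 libraries were below all 4 later libraries, D0 replicate 1 the farther. The log2 difference of D4 against D0 was 0.72 (SE 0.24, edgeR adjusted p = 0.141, 0.0272 to 0.383 over 14 alternatives) and that of D8 against D0 was 0.58 (SE 0.24, 0.237, with a range of 0.0483 to 0.651). Both passed only without D0 replicate 2, with adjusted p = 0.0272 and 0.0483 in edgeR.

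The Nfix circRNA had 575 and 343 reads at D0, 645 and 518 at D4, and 881 and 786 at D8. Its level was 14856 ± 5997 circCPM at D0, 13705 ± 1797 at D4 and 17465 ± 2762 at D8 (n = 2). The D0 replicates differed 1.80-fold in circCPM, the widest gap of the 5 leading circRNAs at D0, and their range enclosed both D4 libraries. The log2 difference of D4 against D0 was -0.03, with a 95% interval of -0.72 to 0.66, and changed sign with the library left out (-0.37 to 0.49). D8 against D0 gave 0.33 on the log2 scale (interval -0.36 to 1.02, edgeR adjusted p = 0.589), with -0.01 without D0 replicate 2.

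The Pvt1 circRNA had 235 and 422 reads at D0, 502 and 438 at D4, and 516 and 740 at D8. Its level was 10433 ± 3717 circCPM at D0, 11085 ± 807 at D4 and 12988 ± 2285 at D8 (n = 2). As in Nfix, the D0 replicates enclosed the D4 libraries, but here D0 replicate 1 was the lower one. The log2 difference of D4 against D0 was 0.18, with a 95% interval of -0.44 to 0.80. It was -0.11 without D0 replicate 1, and -0.09 when the scaling used only circRNAs with a mean of 20 counts or more. D8 against D0 gave 0.41 on the log2 scale (interval -0.21 to 1.03, edgeR adjusted p = 0.462), with 0.12 without D0 replicate 1 and 0.85 without D0 replicate 2.

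**Figure D3:**
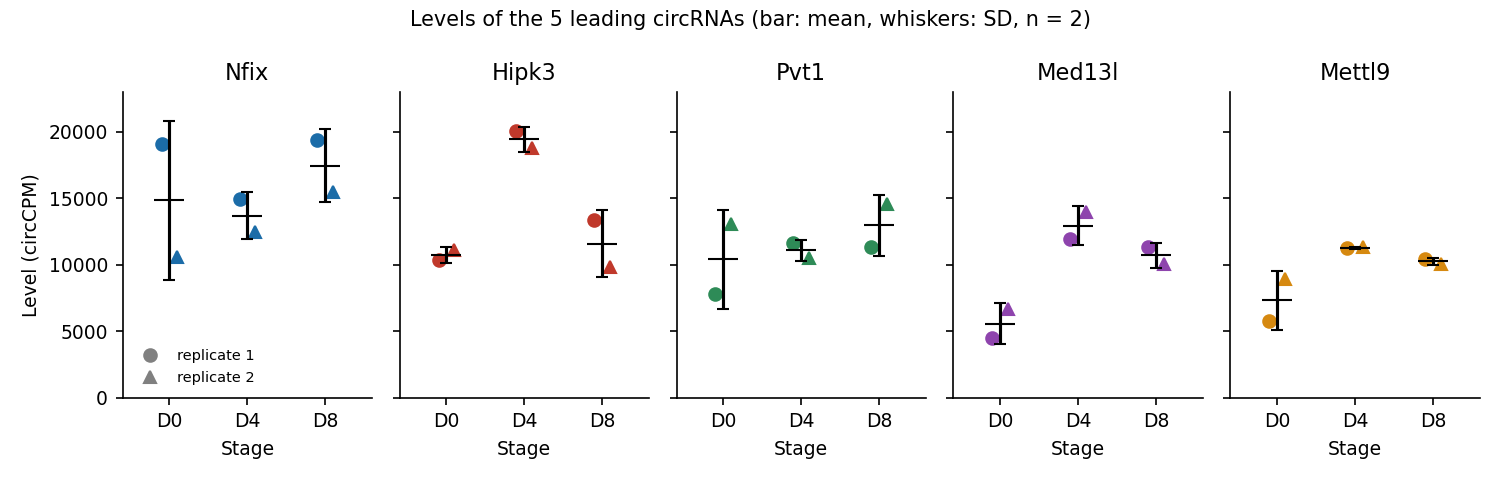
Level in circCPM (y axis) for the 5 leading circRNAs by stage, with circles for replicate 1, triangles for replicate 2, and the mean with its SD (n = 2). Both D4 libraries lie above both D0 libraries for Hipk3, Med13l and Mettl9, and the D0 replicates of Nfix and Pvt1 lie far apart in opposite directions.

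In 7 of the 10 members tested both D4 libraries were above both D0 libraries in circCPM, against 25.4% of all circRNAs tested. They were the leading circRNAs of Hipk3, Med13l and Mettl9 and all 4 tested circRNAs of Pvt1, Med13l and Mettl9 that overlap a leading one. Both D8 libraries were above both D0 libraries in 5 of 10, against 26.5%. These backgrounds are not matched on level, and abundant circRNAs have less counting error. Among the 56 circRNAs tested with a mean of at least 2000 circCPM other than the 5 leading ones, 1 of them the overlapping circRNA of Mettl9, both D4 libraries were above both D0 libraries in 22 (39.3%), and likewise for D8. These circRNAs share libraries, and those of a locus share a gene, so the counts are a description.

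The overlapping circRNAs were far less abundant. In the Med13l locus, the circRNA of exons 2 to 4 (mmu_circ_0012054) had 13 and 20 reads at D0, 35 and 39 at D4, and 28 and 41 at D8. The circRNA of exons 2 and 3 (mmu_circ_0001397) had 3 and 9, 16 and 26, and 13 and 24 reads. Their log2 differences of D4 against D0 were 0.82 (SE 0.44, edgeR adjusted p = 0.365) and 1.46 (SE 0.70, 0.311), and both had the sign of the leading circRNA, which shares exon 2 and the same first base. For the circRNA of exons 2 and 3 the value was 0.95 without D0 replicate 1 and 2.38 without D0 replicate 2.

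In the Pvt1 locus, the circRNA of exons 2 to 5 had 7 and 5 reads at D0, 16 and 17 at D4, and 17 and 27 at D8. Its log2 difference of D8 against D0 was 1.31 (SE 0.60, edgeR adjusted p = 0.290), against 0.41 for the leading circRNA. The circRNA of exons 2 and 3 had 3 and 4, 12 and 7, and 2 and 6 reads, and was highest at D4. A longer one that begins at the same base (mmu_circ_0005722) had 7 and 6 reads at D4 and was listed at 0 in the other 4 libraries. Another, which ends with exon 2, was listed in 4 libraries with 3 or 4 reads. In the Nfix locus, a circRNA with the same last base had 3 and 9 reads at D0, 2 and 4 at D4, and 13 and 7 at D8. No annotated transcript that spans this circRNA had exon ends at both of its ends. The other 3 overlapping circRNAs of Pvt1 were not tested. For that of Nfix the 95% interval of D8 against D0 ran from -2.26 to 2.78 on the log2 scale. No circRNA overlapped that of Hipk3.

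**Figure D4:**
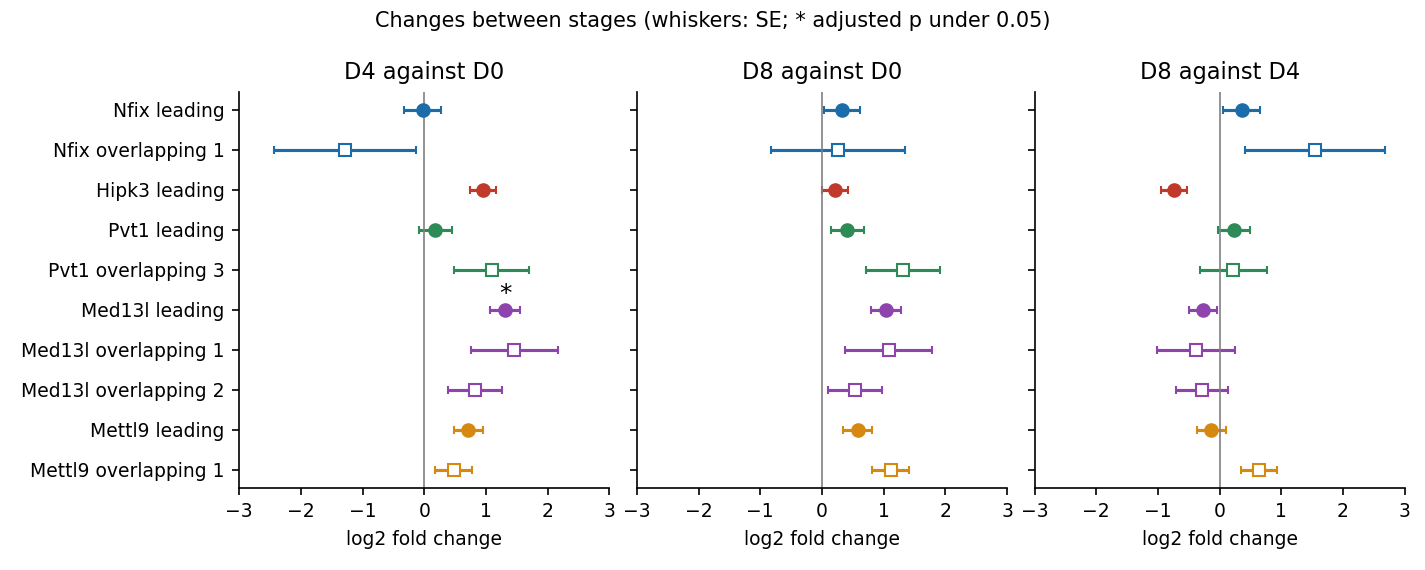
Log2 fold changes (x axis) of the 10 tested members between stages, with filled circles for leading circRNAs, open squares for overlapping ones, and whiskers of 1 SE. The asterisk marks Med13l at D4 against D0, the comparison with an edgeR adjusted p of 0.0342.

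The Mettl9 locus gave the most abundant overlapping circRNA. The circRNA of exons 3 and 4 (mmu_circ_0001625, chr7:128195601-128200913, 395 bases) had 38 and 69 reads at D0, 93 and 95 at D4, and 147 and 185 at D8. Both D8 libraries were the highest in circCPM. Its log2 difference of D8 against D0 was 1.11 (SE 0.30, edgeR adjusted p = 0.114, 0.0488 to 0.330 over 14 alternatives), and it passed only without D0 replicate 2. Of D8 against D4 the leading circRNA had a log2 difference of -0.13 (SE 0.23), while the shorter one had 0.64 (SE 0.30).

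The leading circRNA of Mettl9 took 82.0% and 80.7% of the reads of its locus at D0, 83.9% and 83.3% at D4, and 76.4% and 73.4% at D8. Both D8 shares were below all others, with 95% Wilson intervals of 72.9 to 79.5% and 70.0 to 76.5%, against 80.7 to 86.7% and 80.0 to 86.1% at D4. The D0 intervals were wider, at 76.2 to 86.6% and 76.3 to 84.4%, and both overlapped both D8 intervals. The intervals cover counting error within a library only and take no account of the spread between replicates. No molecular identifiers tell copied reads from separate molecules, so the intervals may understate even the counting error. The stage means were 81.3 ± 0.93%, 83.6 ± 0.43% and 74.9 ± 2.11% (n = 2). An exact two-sided permutation test of the spread between stage means gave p = 0.0667, the smallest that the 15 splits into pairs allow. Over the 4 loci tested in this way, exact p-values were 0.2 for Pvt1, 0.533 for Med13l and 0.667 for Nfix, so that of Mettl9 adjusted over these 4 could not pass either.

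The shares in the other loci were nearer to their upper limit. Nfix stood at 98.5 ± 1.44%, 99.5 ± 0.32% and 98.8 ± 0.40% at D0, D4 and D8. Pvt1 stood at 96.3 ± 2.23%, 93.2 ± 0.35% and 95.5 ± 0.26%, and Med13l at 88.8 ± 0.91%, 90.5 ± 0.70% and 90.7 ± 2.78%. In edgeR's quasi-likelihood test of relative use, which compares each circRNA with the others of its locus over 551 circRNAs, 1 circRNA (0.181%) passed in D4 against D0, 0 (0%) in D8 against D0 and 1 (0.181%) in D8 against D4. At an unadjusted p under 0.05 there were 25, 24 and 21. No member was among those that passed. For the shorter Mettl9 circRNA the relative change of D8 against D4 was 0.42 on the log2 scale, with an unadjusted p of 0.176. Those of the overlapping Nfix circRNA (-0.87, unadjusted p = 0.333) and of the Pvt1 circRNA of exons 2 to 5 (0.62, unadjusted p = 0.264) for D4 against D0 were larger on this scale.

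**Figure D5:**
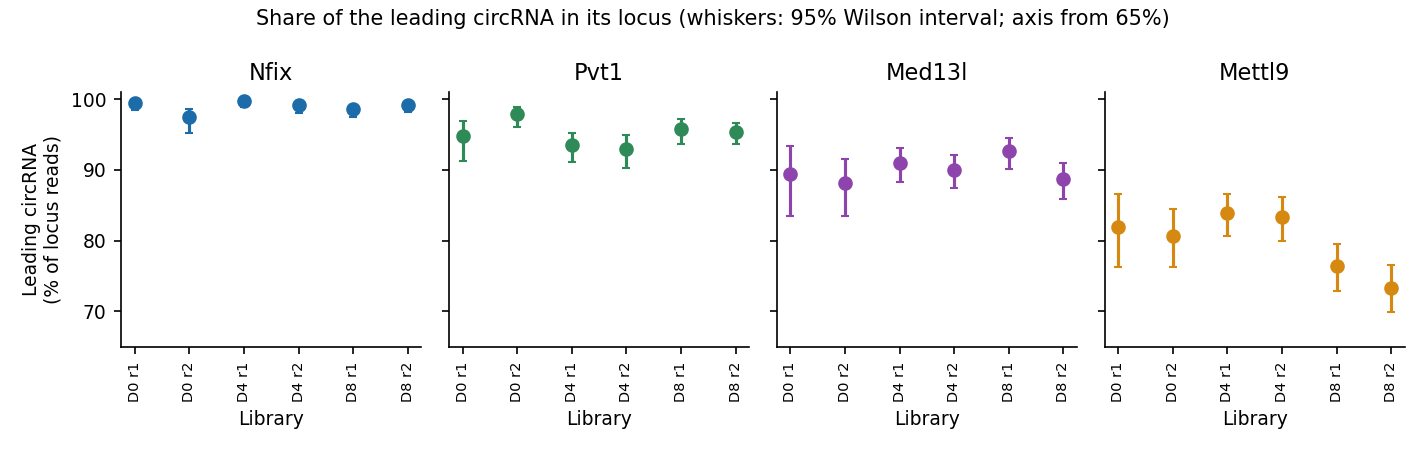
Share of the leading circRNA in the reads of its locus (%, axis from 65%) by library, with 95% Wilson intervals, for the 4 loci with more than 1 circRNA. The 2 D8 libraries of Mettl9, at 76.4% and 73.4%, lie below its other libraries.

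The other circRNAs of the same families had fewer reads than the leading ones. The nuclear factor I genes had 13 circRNAs from Nfia, Nfib and Nfix, of which the 11 that are no members, 1 of them from Nfix, summed to 544 reads against 3748 for the leading Nfix circRNA. Of 6 tested, 1 passed, higher at D4 than at D0, beside 3.27% of all circRNAs tested. This Nfia circRNA (chr4:97623065-97687645) was listed at 0 in both D0 libraries. It had 70 and 49 reads at D4 and 8 and 30 at D8 (edgeR adjusted p = 0.0302 for D4 against D0). A circRNA at 0 in both D0 libraries could enter the table and the test only through the later stages. Its higher level at D4 is thus in part fixed by those filters, and nothing is drawn from this call. Of the 6 tested, 3 were Nfia circRNAs, 2 of which were listed at 0 in both D0 libraries, and the other 3 had log2 differences of 0.63 for Nfib and -0.03 and -1.29 for Nfix. The Mediator complex with its kinase module gave 12 circRNAs, which came from Cdk19, Cdk8, Med12l, Med13, Med13l and Med15. The 9 that are no members had 727 reads against 2471 for the leading Med13l circRNA. Of the 12, 9 were tested, with only the leading Med13l circRNA past the test. As 4 of the 9 were from Med13l and the median of 1.31 was the value of its leading circRNA, the list gave no separate value for the other genes. Cdk8, the kinase of that module, gave 3 tested circRNAs, and the most abundant (mmu_circ_0012323, 308 reads in all) had 11 and 28 reads at D0, 64 and 62 at D4, and 68 and 75 at D8, and its log2 difference of D4 against D0 was 1.35 (SE 0.43, edgeR adjusted p = 0.132). The other two Cdk8 circRNAs had log2 differences of 0.49 and -0.38 for D4 against D0 and of -0.86 and -2.89 for D8 against D0, where the most abundant one had 1.36. Of 7 circRNAs from methyltransferase-like genes 6 were tested, and 0 passed in any pair of stages by edgeR. Their median log2 difference of D4 against D0 was 0.24, against 0.03 over all circRNAs tested. It includes the 2 circRNAs of Mettl9 at 0.72 and 0.48. The others had 6.30 for Mettl15, listed at 0 in both D0 libraries, 0.01 for Mettl16, -0.07 for Mettl10 and -0.23 for Mettl6. The median is thus no separate value for the other genes. Besides Hipk3, only Hipk1 among the homeodomain-interacting protein kinases gave a circRNA, with 38 reads.

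Across the 6 libraries the levels of Med13l and Mettl9 followed each other most closely, with a Pearson r of 0.96 between log2(circCPM + 10) values, which share library totals and stages. The r was 0.70 for Hipk3 and Med13l and -0.46 for Nfix and Pvt1. Among all circRNAs tested, those most like Med13l came from Fndc3b, Acvr2a and Gm16039, each with r = 0.99 over 6 libraries. The Acvr2a circRNA (mmu_circ_0001017) had 49 and 100 reads at D0, 298 and 302 at D4, and 242 and 243 at D8. The circRNA most like that of Hipk3 came from Lrch3 (r = 0.96), followed by Galntl4 and Slc10a7 (both r = 0.95). That of Lrch3 had 127 and 209 reads at D0, 499 and 435 at D4, and 303 and 259 at D8, with the highest levels at D4 as in Hipk3. Those most like Pvt1 were from Tasp1 (r = 0.99), Itsn1 (r = 0.97) and Tbcel (r = 0.96). Those most like Nfix were from Sec24a (r = 0.97), Odz3 and Upf2 (both r = 0.96), and those most like Mettl9 from Mertk, Sdk1 and Ptpn4 (each r = 0.99). The circRNAs of Tbcel, Mertk, Sdk1 and Ptpn4 were listed at 0 in D0 replicate 1, and those of Sec24a and Odz3 at 0 in 2 libraries, so these likenesses rest on low counts. Counts were also low for Galntl4, Slc10a7, Upf2 and Itsn1, with at most 28 reads in any library. The circRNAs of Fndc3b and Gm16039 had at most 9 reads in a D0 library. With Spearman's rho in place of Pearson's r, 0 of the 3 named for Mettl9 and 1 of the 3 for Hipk3 were again among the 3 most alike. They are the highest of 1403 to 1406 circRNAs compared and are given as a description.

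The study's question of miRNA binding was looked at in the letters of the 5 circles. Seed matches, the reverse complement of bases 2 to 8, were searched on the transcribed strand only and across the junction, for 6 miRNAs that the paper names or that are well known from circRNA work. The mature sequences of 5 were found in the RefSeq table (GRCm38.p6), with the seed in capitals, and mmu-miR-124-3p is named only.
mmu-miR-17-5p: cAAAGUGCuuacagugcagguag
mmu-miR-138-5p: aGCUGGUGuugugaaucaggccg
Of 25 pairs of circle and miRNA 2 had a match, both in Hipk3, the longest circle. The match to miR-17-5p (GCACTTT) began at base 619 of the circle, and 13 of 157 circles at least as long (8.28%) held this match within the same length. The match to miR-138-5p (CACCAGC) began at base 527, and 36 of 157 (22.9%) held it. The matches to miR-30c-5p (TGTTTAC), miR-130a-3p (TTGCACT) and miR-7a-5p (GTCTTCC) were not in these circles. A match describes letters and is no measure of binding.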

How the data were processed

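The authors trimmed reads with fastp, aligned them to mm9 with BWA-MEM and called circRNAs per library with CIRI2. A circRNA was kept if both libraries of some stage had at least 2 reads, which held for all 3662 when checked. The deposited values are raw counts of back-splice reads, with no normalization. The submitters' processing notes also name FastQC 0.11.9 and HISAT2 2.2.0. The authors' own comparisons, the mRNA data and the qPCR values were not used here.

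Groups came from the labels. Ends were compared with the GENCODE M1 annotation of mm9 (NCBIM37), with starts counted from base 1. Exon numbers, introns, coding and UTR bases came from 1 transcript per circRNA, the one with the most matching ends. Ties went to more exons within the circle, then to a protein-coding gene, then to more exons in the transcript, then by transcript name. Members, gene lists and miRNAs were chosen with earlier results of these data known. Besides members, the 3 circRNAs most like each leading one, ranks 4 to 7 by mean level and family lists were named, and circRNAs of those lists beyond a call were picked after their values were seen. Counts of all 6 libraries were fitted in edgeR 4.0.16 (R 4.3.3, limma 3.58.1) with TMM normalization, filterByExpr by stage (minimum count 10, minimum total 15) and no other covariate. The quasi-likelihood F-test with Benjamini-Hochberg adjustment at 0.05 covered 1407 circRNAs, and relative use was tested with diffSpliceDGE over 551. SE is the log2 fold change divided by the root of F, intervals are SE times the t quantile on the 7.65 degrees of freedom of the fit, and p-values measure the spread between these libraries only. The common dispersion was 0.219. Alternatives were DESeq2 1.42.0, size factors by RLE or from column totals, filters at none or at a mean of 5 or 20 counts, a block by replicate, a fit of each pair of stages, each library left out, other sets of circRNAs in a locus, pseudocounts of 1 and 50 in place of 10, and Spearman's rho. On simulated data for D4 against D0 (1407 circRNAs, 200 changed), edgeR recovered 44 at 4-fold with 2 false calls, and 187 at 16-fold with 6. Levels, shares and sequences were computed in Python 3.11.15 with pandas 2.3.3, numpy 2.4.6, scipy 1.17.1 and matplotlib 3.10.9.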

Additional observations from a re-analysis of the deposited data

How the results depend on the processing

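With 2 libraries a stage, changes of 4-fold were often missed on simulated data of all 1407 circRNAs tested (44 of 200 recovered). The leading circRNAs had the highest mean levels, and the simulation gives no rate for them alone. Calls near the threshold moved with the processing, and the cause was not tested.

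The Nfix circRNA changed sign for D4 against D0 with no filter (0.037 on the log2 scale) and with the replicate block (0.022). That of Pvt1 changed sign at a mean of 20 counts or more (-0.086), a setting whose scaling shifted the log2 differences of D4 against D0 by a median of -0.27 over 401 circRNAs. That of Hipk3 passed in a fit of the 2 stages (0.89). The Med13l test across stages passed with DESeq2 (adjusted p = 0.0292), with no filter (0.0457) and at a mean of 20 counts or more (0.0437), and its D4 against D0 was lost with no filter (1.36 on the log2 scale).

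Counts of calls across all stages were 45 with DESeq2, 5 with column totals alone, 396 with no filter, 71 and 5 at means of 20 and 5 counts, and 4 with the replicate block. For D4 against D0 they were 17 with the block and 76 in a fit of 2 stages. For D8 against D0 they were 33 with DESeq2, 41 at a mean of 20 counts, 4 with the block and 0 in a fit of 2 stages. For D8 against D4 they were 3 with DESeq2, 2 at a mean of 20 counts and 0 with the block. For relative use they were 0 (D4 against D0) and 1 (D8 against D0) with no filter, and 0 with the block (D8 against D4). Of the 3 most similar circRNAs, Spearman's rho kept 1 for Hipk3 and 0 for Mettl9.

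With each library left out in turn, log2 differences of D4 against D0 ran from -0.37 to 0.49 for Nfix, 0.87 to 1.05 for Hipk3, -0.11 to 0.61 for Pvt1, 1.08 to 1.63 for Med13l and 0.46 to 1.08 for Mettl9. Those of D8 against D0 ran from -0.012 to 0.85 for Nfix (-0.33 to 1.18 for its overlapping circRNA), -0.00982 to 0.46 for Hipk3, 0.12 to 0.85 for Pvt1, 0.82 to 1.37 for Med13l and 0.34 to 0.95 for Mettl9. For the Med13l circRNA of exons 2 and 3 they ran from 0.95 to 2.38 (D4 against D0) and 0.58 to 2.01 (D8 against D0), and for the overlapping Nfix circRNA from -1.82 to -0.37 (D4 against D0) and 0.93 to 2.12 (D8 against D4). Those of D8 against D4 ran from -0.039 to 0.45 for the Pvt1 circRNA of exons 2 to 5 and from -0.76 to 0.023 for the Med13l circRNA of exons 2 and 3. The adjusted p across stages ran from 0.0301 to 0.169 for Med13l and from 0.0499 to 0.408 for Mettl9. Counts of calls ran from 2 to 58 across stages, 4 to 67 for D4 against D0, 11 to 27 for D8 against D0 and 0 to 15 for D8 against D4, and for relative use from 0 to 1, 0 to 1 and 0 to 2. The share of the leading circRNA moved between D0 and D8 by -0.65 to 1.39 percentage points in Nfix, -2.37 to 0.79 in Pvt1, -0.064 to 3.87 in Med13l and -7.95 to -4.96 in Mettl9.

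No relative change of a member within its locus passed the test, and those that changed sign under an alternative are given here. With the replicate block they were 0.019 on the log2 scale for the overlapping Nfix circRNA (D8 against D0), and -0.00035 for the leading and 0.0077 for the Pvt1 circRNA of exons 2 to 5 (D8 against D4), which had 0.028 with no filter. With each library left out, those of D4 against D0 ran from -1.58 to 0.00025 for the overlapping Nfix circRNA, -0.020 to 0.030 for the leading Med13l circRNA and -0.082 to 0.50 for that of exons 2 and 3. Those of D8 against D0 ran from -0.0070 to 0.014 for Nfix (-0.75 to 0.82 for the overlapping one), -0.019 to 0.0014 for Pvt1, -0.033 to 0.059 for Med13l and -0.25 to 0.43 for its circRNA of exons 2 and 3. Those of D8 against D4 ran from -0.10 to 0.11 for the Pvt1 circRNA of exons 2 to 5, -0.043 to 0.048 for Med13l, -0.36 to 0.16 for its circRNA of exons 2 and 3 and -0.17 to 0.13 for that of exons 2 to 4.

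Libraries with the same replicate number share only the number. Their deviations correlated at 0.035, 0.064 and 0.041, so the block is no pairing by design, and beyond the counts and signs given above it changed no call or sign of a leading circRNA.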

Other observations

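The same parental genes gave 4 further circRNAs that do not overlap the leading ones. Med13l gave one (mmu_circ_0001398, chr5:119121022-119130980) with 0 and 9 reads at D0, 17 and 22 at D4, and 4 and 33 at D8. Pvt1 gave another at chr15:62002313-62007481 with 28 reads in all, and one more (mmu_circ_0005723) with 12 reads, listed at D4 and in D8 replicate 1 only. Nfix gave mmu_circ_0015053 with 3 and 5 reads at D0 and 5 in D4 replicate 1, listed at 0 in the other 3 libraries. Hipk3 and Mettl9 gave 0 others.

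Divergent primer pairs of the study, which point away from each other on the linear RNA, were located on the Med13l, Hipk3, Mettl9 and Nfix circles. Each pair would give a product across the back-splice junction, of 152 bases for Med13l, 228 for Hipk3, 164 for Mettl9 and 197 for Nfix. The antisense primer of Mettl9 lies at bases 97 to 117 of the circle, in exon 2, which the shorter circRNA of exons 3 and 4 does not hold.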
